A study of Mus musculus with 21 samples.

Results

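Cytochrome P450 genes were followed across sorted fractions of the mouse main olfactory epithelium. A gene was taken when its symbol had the form Cyp, family number, subfamily letters and gene number, carried no pseudogene suffix, and stood in both deposited tables of TPM values (TPM is a level corrected for transcript length and scaled to the same total in every library). This gave 93 of the 22786 genes shared by the tables. Cyp2c69 matched in 1 table only and was left out.

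P450s are heme enzymes that insert oxygen into small molecules, and most sit in the endoplasmic reticulum, where NADPH-cytochrome P450 reductase (Por) supplies their electrons. The olfactory mucosa is one of the tissues richest in xenobiotic-metabolising P450s. There they are known chiefly from sustentacular cells, the supporting cells around the sensory neurons, and from Bowman glands, and they act on inhaled chemicals and odorants. Other P450s make or break down signals such as retinoic acid, steroids, oxysterols and oxidised fatty acids.

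All mice carried a tetracycline-responsive (tetO) construct that marks cells with mCherry. It encoded HyperTRIBE, an RNA-editing domain, alone (HT, tetO-HyperTRIBE_mCherry) or joined to the RNA-binding protein Mex3a (MexHT, tetO-Mex3a_HyperTRIBE_mCherry), so the controls express an editing domain too. With gg8tTA and OMPtTA together, drivers of immature and of mature olfactory sensory neurons (OSN), the MexHT mice gave 6 OSN libraries and 5 of mCherry-negative cells, and the HT mice gave 3 of each kind. With gg8tTA alone there were 2 OSN and 2 mCherry-negative MexHT libraries, called gg8 MexHT here. An OSN library and the mCherry-negative library of the same number came from the same mouse, per the labels, and MexHT OSN replicate 6 had no such partner. Every gg8 library carries one date in its name and every library of the double driver another, so driver and date cannot be told apart. The labels give no age or sex.

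The recovered depth was 7425287 to 15216781 counts per library. Mex3a was 328 to 1271 TPM in the MexHT OSN, 460 and 1632 TPM in the gg8 MexHT OSN and 24 to 61.5 TPM in the HT OSN libraries. The mCherry-negative fractions were not free of neurons. Omp, the marker of mature OSN, was 46.9 to 1431 TPM in the MexHT, 1093 to 2159 TPM in the HT and 1937 and 3561 TPM in the gg8 MexHT mCherry-negative libraries. Conversely, the summed level of 12 sustentacular markers that are not P450s was 567 to 960 TPM in MexHT OSN, 960 to 2029 TPM in HT OSN and 345.0 and 568.4 TPM in gg8 MexHT OSN libraries, against 1060 to 4083 TPM over all mCherry-negative libraries. Bulk samples cannot tell fewer cells of a type from less RNA per cell.

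Only a part of the family was present. A mean of at least 5 TPM in at least 1 group was reached by 24 members, and a mean of at least 1 TPM by 38. The lowest members past 5 TPM were Cyp2b10 (highest group mean 5.24 TPM), Cyp2j9 (5.07) and Cyp4f17 (5.04), and the nearest under it were Cyp4x1 (3.95), Cyp4f15 (3.88) and Cyp1b1 (3.83). The other 55 members stayed under a mean of 1 TPM in every group, and 7 of them (Cyp11b2, Cyp2c29, Cyp2c39, Cyp2c40, Cyp2c67, Cyp2d10 and Cyp2d11) never exceeded 3 counts in any of the 21 libraries. With a group mean of 1 TPM as the limit, the OSN groups held 28 (MexHT), 27 (HT) and 27 (gg8 MexHT) members, and their mCherry-negative partners 30, 30 and 28. A set of 20 members passed it in all 6 groups.

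Subfamilies best known from liver, Cyp2c and Cyp3a, were mostly under 1 TPM. Family 2, the largest class, held 47 members, of which 15 reached 1 TPM and 11 reached 5 TPM. Here and below it is taken without Cyp2r1, which was counted under vitamin D metabolism. None of the 13 Cyp2c genes in the cluster on chromosome 19 reached a group mean of 1 TPM, and the highest of them, Cyp2c65, averaged 0.216 TPM over the 6 group means. Cyp2c44, for which no position was matched, reached group means of 1.30 TPM in HT OSN, 1.5 TPM in HT mCherry-negative and 2.24 TPM in gg8 MexHT mCherry-negative libraries. Of the 7 members of family 3, which includes the main drug-metabolising P450s of liver, 1 reached 1 TPM, and its highest, Cyp3a13, averaged 0.580 TPM. Family 4, the fatty acid hydroxylases, had 9 of 17 members at 1 TPM. All 3 members of family 1 and all 3 retinoic acid hydroxylases (Cyp26) reached 1 TPM, as did 4 of 6 P450s of bile acid and cholesterol metabolism. Cyp26c1 reached it only in gg8 MexHT OSN (1.27 and 1.58 TPM) and had 3 counts or fewer in 14 of the 21 libraries. Cyp1a1 reached it only in gg8 MexHT mCherry-negative libraries (1.39 and 3.28 TPM). Steroid synthesis was represented by 1 of 6 genes (Cyp11a1), and vitamin D metabolism by 1 of 3, of which Cyp27b1 was the highest with an average of 0.811 TPM.

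By the mean of the 6 group means, the order of the levels among the members began with Cyp2a5 (130 TPM), Cyp2f2 (85.9), Cyp2g1 (59.2), Cyp20a1 (38.4), Cyp4v3 (34.4), Cyp2s1 (22.5), Cyp2j12 (19.6) and Cyp1a2 (16.3). P450s whose symbols lie outside the name pattern are not in this order. Of these, Cyp51 averaged 64.2 TPM in MexHT OSN and 31.1 TPM in HT OSN libraries. Ptgis, the prostacyclin synthase, averaged 56.9 TPM in MexHT mCherry-negative and 0.845 TPM in MexHT OSN libraries. Levels spread widely between libraries. Cyp2a5 ran from 20.2 to 589 TPM over the 21 libraries, Cyp2f2 from 19.7 to 395 TPM and Cyp2g1 from 6.96 to 282 TPM, and these ranges overlapped. Within libraries the order was firmer: Cyp2g1 was under Cyp2a5 in all 21, and Cyp2f2 was under Cyp2a5 in 11 of 11 OSN and 4 of 10 mCherry-negative libraries. Cyp20a1 was the steadiest of the 8, with a highest library 2.17 times its lowest, where the same ratio was 29.2 for Cyp2a5 and 40.5 for Cyp2g1. Cyp2a5 reads are uncertain in one respect. Its longest transcript is 98.2% identical to that of Cyp2a4, which was listed at an average of 0.298 TPM, and how the counting divided reads between them is not given in the sources used here.

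**Figure D1:**
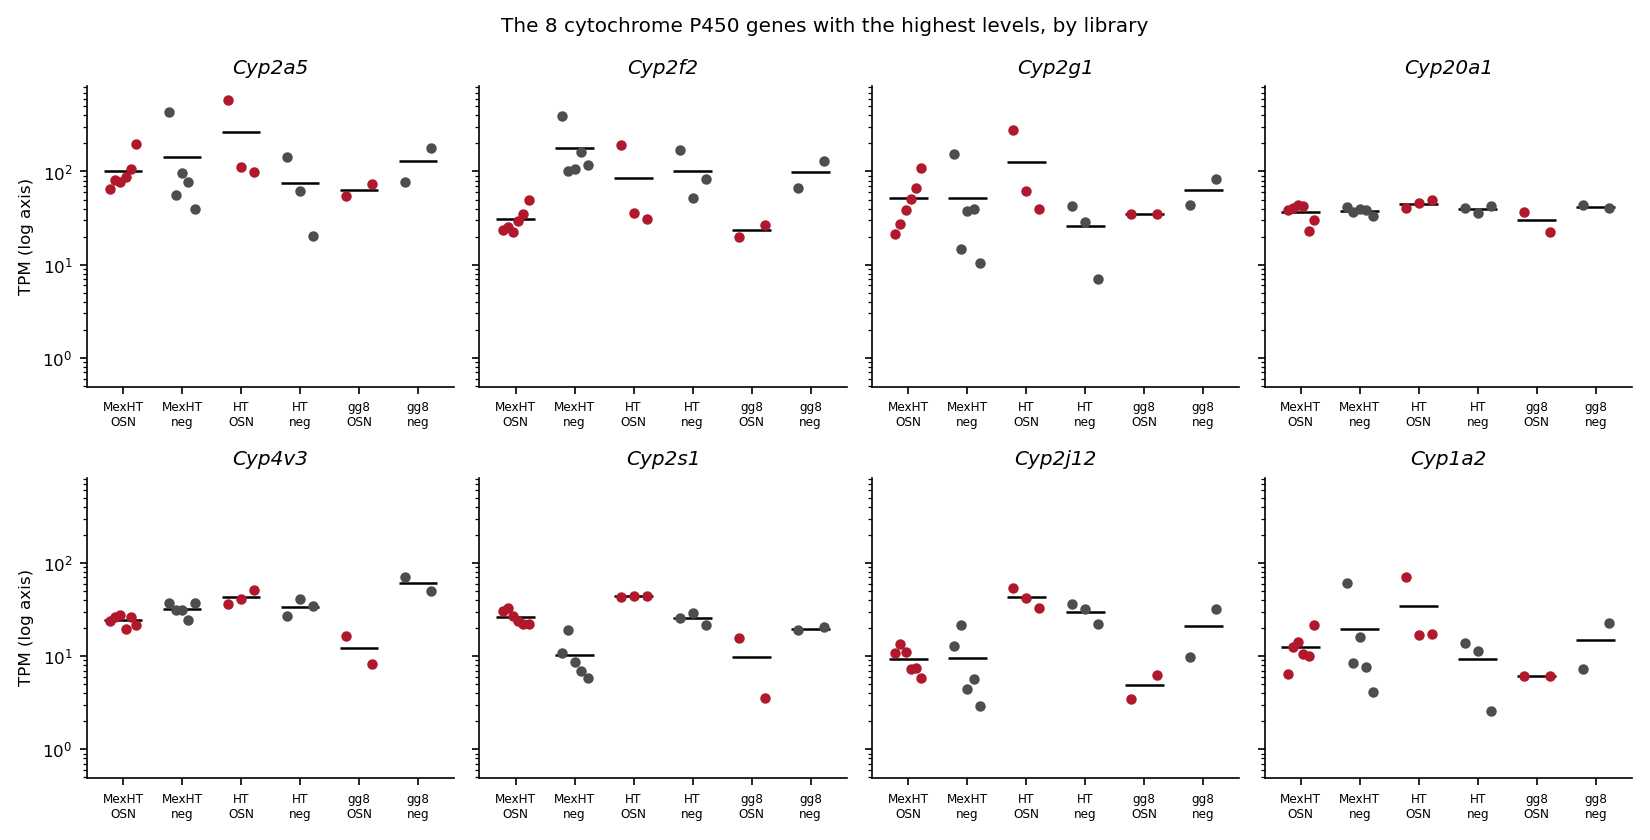
TPM of the 8 members with the highest levels in every library (log axis), by group. Red points are OSN libraries, grey points mCherry-negative libraries (neg), and black lines group means. Cyp2a5 and Cyp2f2 spread over 20.2 to 589 and 19.7 to 395 TPM, while Cyp20a1 stays between 22.5 and 48.9 TPM.

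Much of this output came from a single stretch of chromosome 7. Of the 92 members with a RefSeq position (build GRCm38), 70 lay in 10 clusters with gaps of at most 500000 bases. The cluster at chr7:25802469-27158564 holds 13 members, among them Cyp2s1, Cyp2g1, Cyp2a5, Cyp2f2 and Cyp2t4, of which 7 reached 1 TPM. It carried 56.7% of the family's summed mean TPM, and 53.8% ± 9.41 (SD, n = 6) of the P450 TPM in MexHT OSN and 55.3% ± 11.7 (SD, n = 5) in MexHT mCherry-negative libraries. Its neighbours on the same stretch were not alike: Cyp2a4, Cyp2a12, Cyp2a22, Cyp2b9, Cyp2b13, Cyp2b19 and Cyp2b23 did not reach 5 TPM in any group. By contrast the 6 Cyp3a genes clustered on chromosome 5 had no member at 1 TPM.

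The 250 bases upstream of the annotated start of 4 members are shown, read from RefSeq promoters of build GRCm38 and written on the gene's own strand. Cyp2a5 and Cyp1a2 kept a narrow ratio to each other in these libraries, and Cyp2f2 and Cyp2e1 were both lower in OSN libraries, as given further on. Capitals mark TTGGCA, a site type of nuclear factor I, and the TATA motif TATAAA.
Cyp2a5: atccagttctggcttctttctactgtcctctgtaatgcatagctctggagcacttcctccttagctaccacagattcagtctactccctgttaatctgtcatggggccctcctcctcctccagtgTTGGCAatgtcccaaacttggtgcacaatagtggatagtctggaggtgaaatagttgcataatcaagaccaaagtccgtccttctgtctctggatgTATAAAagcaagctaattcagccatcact
Cyp1a2: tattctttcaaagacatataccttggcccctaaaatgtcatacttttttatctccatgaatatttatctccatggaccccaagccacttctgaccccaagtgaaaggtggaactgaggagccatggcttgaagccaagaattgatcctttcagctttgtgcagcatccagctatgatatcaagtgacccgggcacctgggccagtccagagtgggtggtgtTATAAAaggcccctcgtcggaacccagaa
Cyp2f2: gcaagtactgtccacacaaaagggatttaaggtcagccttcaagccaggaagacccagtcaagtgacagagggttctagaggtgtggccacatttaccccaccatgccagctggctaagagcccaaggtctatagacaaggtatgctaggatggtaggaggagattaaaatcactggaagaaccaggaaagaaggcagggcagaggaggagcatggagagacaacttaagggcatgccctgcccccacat
Cyp2e1: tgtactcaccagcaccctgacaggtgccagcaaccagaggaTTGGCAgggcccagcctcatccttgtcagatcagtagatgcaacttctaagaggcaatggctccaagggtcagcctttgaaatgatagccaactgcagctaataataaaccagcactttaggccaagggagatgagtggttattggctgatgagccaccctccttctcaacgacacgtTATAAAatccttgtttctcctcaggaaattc
They lie at chr7:26835089-26835338 (plus strand), chr9:57683656-57683905 (minus strand), chr7:27119705-27119954 (plus strand) and chr7:140763569-140763818 (plus strand), in the order shown. Searching both strands, TATAAA began at position -29 from the start in Cyp2a5 and in Cyp1a2 and at -31 in Cyp2e1, and TTGGCA at -125 in Cyp2a5 and -209 in Cyp2e1. Cyp2f2 held neither. In windows of 250 bases before to 50 after the start, TATAAA was in 30 of the 72 members with a window, or 41.7%, and in 13.6% of all 32851 windows, and TTGGCA was in 16 of the 72, or 22.2%, and in 14.1% of all. The dioxin response core GCGTG was in 16 of the 72 members and in 32.4% of all windows, and the full nuclear factor I palindrome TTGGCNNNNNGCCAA was in none of the 72 and in 0.0365% of all. TTGGCA can lie within the palindrome. A match here is one of letters only.

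The summed level of the 93 members was a small share of the transcriptome and varied as much between mice as between fractions. It was 340 to 551 TPM in MexHT OSN libraries, with a mean of 403 ± 75.5 (SD, n = 6), and 435, 491, 496, 396 and 1363 TPM in the MexHT mCherry-negative libraries, where the last value is replicate 1. HT OSN libraries summed to 1486, 546 and 534 TPM and HT mCherry-negative libraries to 678, 416 and 396 TPM. The gg8 MexHT libraries summed to 331 and 260 TPM in OSN and 454 and 670 TPM in mCherry-negative cells. All groups but the gg8 pair overlapped their partner fraction. MexHT mCherry-negative replicate 1 and HT OSN replicate 1 stood far above their groups, whose means were 455 and 540 TPM without them, against 636 and 855 TPM with them. Both were also the highest of their groups for the summed sustentacular markers, at 4083 and 2029 TPM. The part of sustentacular RNA in this was not tested.

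A few members carried most of the sum. Between 5 and 18 members were needed to reach 80% of it, depending on the library. Family 2 made up 63.1% ± 7.32 (SD, n = 6) in MexHT OSN, 64.4% ± 10.1 (SD, n = 5) in MexHT mCherry-negative and 68.0% ± 12.8 (SD, n = 3) in HT OSN libraries, and family 4 made up 14.0% ± 2.13, 17.7% ± 7.02 and 15.5% ± 6.25 in the same groups. These differences between groups were within the spread of the libraries. Cyp2a5 was the leading member in 11 of 11 OSN libraries. Among the 10 mCherry-negative libraries Cyp2f2 led in 6 and Cyp2a5 in 4.

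**Figure D2:**
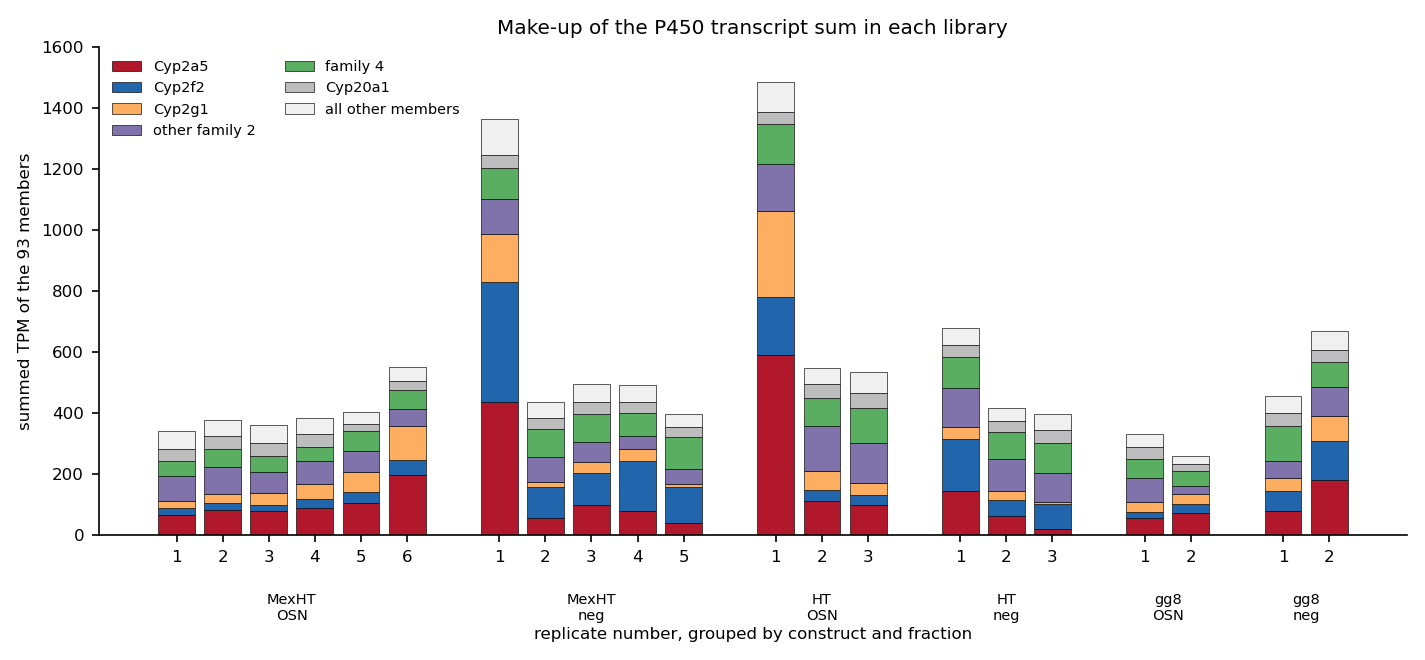
Summed TPM of the 93 members in each library (vertical axis from 0, bars by replicate within each group, neg for mCherry-negative), divided into Cyp2a5, Cyp2f2, Cyp2g1, the other family 2 members, family 4, Cyp20a1 and all other members. MexHT mCherry-negative replicate 1 (1363 TPM) and HT OSN replicate 1 (1486 TPM) rise above the rest, and the Cyp2f2 block is thin beside that of Cyp2a5 in OSN libraries.

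Cyp2a5, the coumarin hydroxylase of mouse, which also oxidises nicotine, did not separate the fractions. It ranged from 64.3 to 198 TPM in MexHT OSN libraries, with a median of 84.4 TPM, and was 436, 56.2, 96.8, 77.8 and 39.8 TPM in MexHT mCherry-negative replicates 1 to 5. HT mice had 589, 111 and 99.1 TPM in OSN and 144, 62.3 and 20.2 TPM in mCherry-negative cells. In the gg8 mice it was 54.2 and 73.3 TPM in OSN and 77.5 and 179 TPM in mCherry-negative cells. The fractions overlapped with the double driver, and with gg8 alone the OSN libraries were the lower ones. The log2 difference, OSN minus mCherry-negative on log2(TPM + 1), was 0.01 (limma, 95% interval -1.08 to 1.11, adjusted p = 0.986) for MexHT, 1.69 (-0.42 to 3.81, adjusted p = 0.217) for HT and -0.89 (-1.96 to 0.18, adjusted p = 0.219) for gg8 MexHT. Mouse by mouse, however, OSN exceeded mCherry-negative cells in all 3 HT mice, by 1.78 to 4.91 times, in 3 of 5 MexHT mice and in 0 of 2 gg8 mice. With the mouse as a replicate block the HT difference of Cyp2a5 passed (adjusted p = 0.0146). In that setting 4967 of all 17027 genes passed in HT mice, against 1923 without the block.

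Cyp2g1, a P450 described almost only in the olfactory mucosa, followed Cyp2a5. It ranged from 21.5 to 109 TPM in MexHT OSN, with a median of 44.6 TPM, and was 155, 14.8, 37.3, 39.3 and 10.4 TPM in MexHT mCherry-negative libraries. HT mice had 282, 61.6 and 39.6 TPM in OSN and 42.3, 28.9 and 6.96 TPM in mCherry-negative cells, and in gg8 mice 35.3 and 35.2 TPM against 43.4 and 82.0 TPM. The highest library of each double-driver group was the same for Cyp2g1 as for Cyp2a5. No comparison of the fractions passed (HT: log2 difference 2.04, adjusted p = 0.149), but OSN was higher in all 3 HT mice, by 2.13 to 6.67 times, and with the mouse as a replicate block the HT difference had an adjusted p of 0.0123. RefSeq places a further gene, Gm51443, over Cyp2g1, and reads of overlapping genes may not be separable here.

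Cyp1a2, the methylxanthine-oxidising P450 induced through the aryl hydrocarbon receptor, had the same shape at a lower level. It ranged from 6.39 to 21.6 TPM in MexHT OSN, with a median of 11.6 TPM, and was 61.6, 8.49, 16.2, 7.70 and 4.09 TPM in MexHT mCherry-negative libraries. HT mice had 70.6, 16.8 and 17.4 TPM in OSN and 13.8, 11.4 and 2.56 TPM in mCherry-negative cells, which did not overlap, and in gg8 mice 6.12 and 6.07 TPM against 7.23 and 22.9 TPM. The HT difference missed the threshold (log2 1.73, adjusted p = 0.145) and passed with the mouse as a replicate block (adjusted p = 0.0295).

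Cyp2f2, which activates naphthalene in airway and nasal epithelium, was lower in OSN. It ranged from 22.4 to 49.3 TPM in MexHT OSN, with a median of 27.5 TPM, against 395, 101, 106, 163 and 118 TPM in MexHT mCherry-negative libraries. In gg8 mice it was 19.7 and 26.9 TPM in OSN and 66.6 and 129 TPM in mCherry-negative cells. HT OSN held 191, 36.1 and 30.9 TPM and their partners 169, 51.8 and 82.2 TPM. MexHT and gg8 MexHT fractions did not overlap, and HT fractions did. Cyp2f2 fell by 2.32 (log2, SE 0.33, adjusted p = 5.67e-05) in MexHT and by 1.96 (SE 0.42, adjusted p = 0.0424) in gg8 MexHT OSN, and its HT value of -0.57 did not pass (adjusted p = 0.606). Within mice it was lower in OSN in 9 of 10. The gg8 call was lost with median-of-ratios scaling, with voom and with a pseudocount of 0.1 TPM, at adjusted p-values of 0.0557, 0.0622 and 0.0587. Among 10 Bowman gland and duct markers, 7 were lower in MexHT OSN (27.6% of all genes were), 1 in HT (9.11%) and 2 in gg8 MexHT OSN (7.2%). None was higher. They summed to 75.2 to 205 TPM in MexHT OSN against 229 to 918 TPM in the partner fraction. In HT mice they summed to 101 to 164 TPM in OSN against 248 to 642 TPM, without overlap, where Cyp2f2 overlapped. Their part in the result was not tested.

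The ratio of Cyp2f2 to Cyp2a5 therefore parted the fractions, a feature picked after its values were seen and given with no test. The 11 OSN libraries had ratios of 0.249 to 0.369 (median 0.326), and the 10 mCherry-negative ones had 0.718 to 4.07 (median 1.13). No OSN library reached the lowest mCherry-negative one. The ratio was this narrow in OSN although Cyp2a5 itself ran from 54.2 to 589 TPM among the same libraries. The ratios of Cyp2g1 and Cyp1a2 to Cyp2a5 overlapped between the fractions, at 0.335 to 0.653 against 0.260 to 0.561 for Cyp2g1 and 0.0828 to 0.186 against 0.0933 to 0.182 for Cyp1a2. Ratios share the scaling of their library and cancel it.

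**Figure D3:**
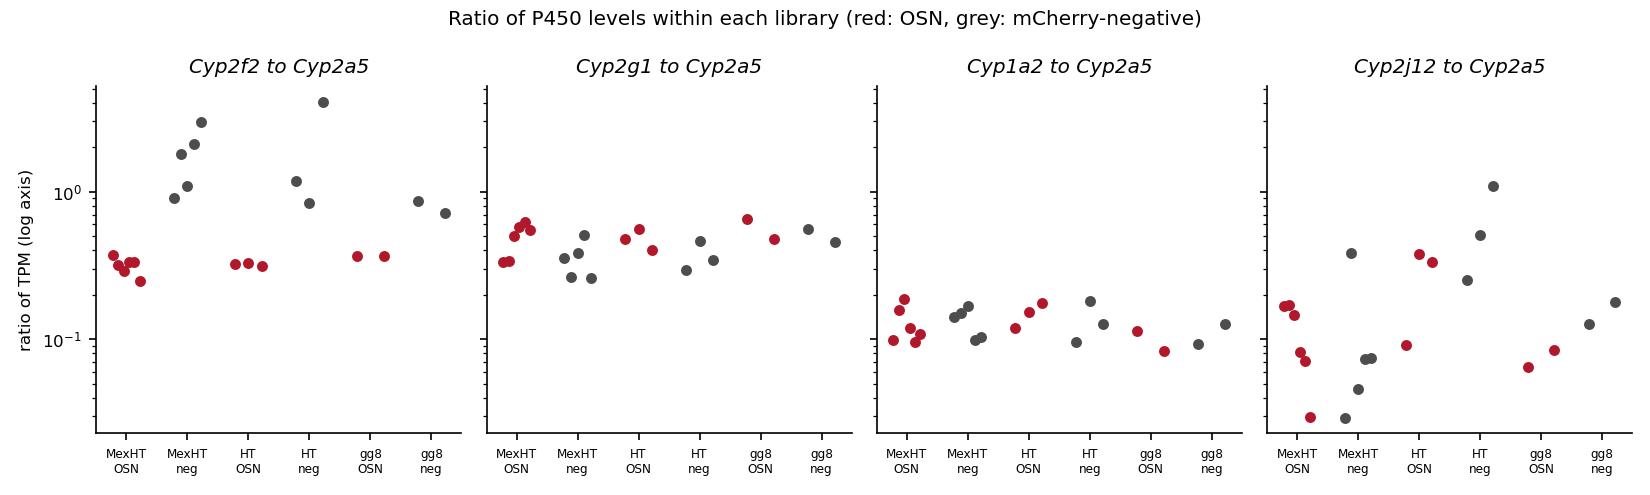
Ratio of the TPM of Cyp2f2, Cyp2g1, Cyp1a2 and Cyp2j12 to that of Cyp2a5 in each library (log axis), by group, with OSN in red and mCherry-negative (neg) in grey. The Cyp2f2 ratio lies between 0.249 and 0.369 in OSN libraries and between 0.718 and 4.07 in mCherry-negative libraries, while the other 3 ratios overlap.

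Of the 12 sustentacular markers, 8 were lower in MexHT OSN (27.6% of all genes were), 4 in HT OSN (9.11%) and 2 in gg8 MexHT OSN (7.2%), and none was higher. Their summed levels overlapped between the HT fractions, at 960 to 2029 TPM in OSN and 1067 to 1921 TPM in mCherry-negative cells. The members of that list were not alike, since Sec14l3 had the higher mean in OSN, 82.1 against 52.5 TPM in MexHT and 229 against 54.6 TPM in HT mice, without passing (adjusted p = 0.101 and 0.077). Cyp2a5 divided by the summed level gave 0.0899 to 0.291 over OSN and 0.0189 to 0.107 over mCherry-negative libraries, and it was higher in OSN in 10 of 10 mice. This direction depends on the markers summed, since Cyp2a5 divided by Sec14l3 alone was lower in OSN in most mice. In gg8 mice Sec14l3 was 54.1 and 54.7 TPM in OSN and 56.6 and 52.4 TPM in mCherry-negative cells, where Cyp2a5 was lower in OSN. The part of sustentacular RNA in the OSN libraries' P450 levels was not tested.

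Over all members, the OSN against mCherry-negative comparison of MexHT mice gave the most calls. Of the 93 members 29 averaged at least 1 TPM over the libraries compared and could be tested, and 15 passed an adjusted p of 0.05, beside 63.4% of all genes tested. Of the 15, 5 were higher in OSN (35.8% of all genes) and 10 lower (27.6%). The median log2 difference was -0.09 over these members and 0.16 over all genes. Libraries of the fractions did not overlap for 9 members, against 43.1% of all genes. With median-of-ratios scaling, which moved the median of all genes to 0.03, the split was 3 higher and 11 lower. In HT mice 5 of 30 members passed, beside 11.3% of all genes, with 1 higher (2.18% of all genes) and 4 lower (9.11%), and 11 did not overlap, beside 41.0%. In gg8 MexHT mice 4 of 30 passed, beside 8.32% of all genes, with none higher (1.12% of all genes) and 4 lower (7.2%), and 22 did not overlap, beside 63.6%. With the mouse as a replicate block 11 members passed in HT mice, 7 higher and 4 lower. Of all 17027 genes tested there 4967 passed with the block, where 1923 had without it.

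**Figure D4:**
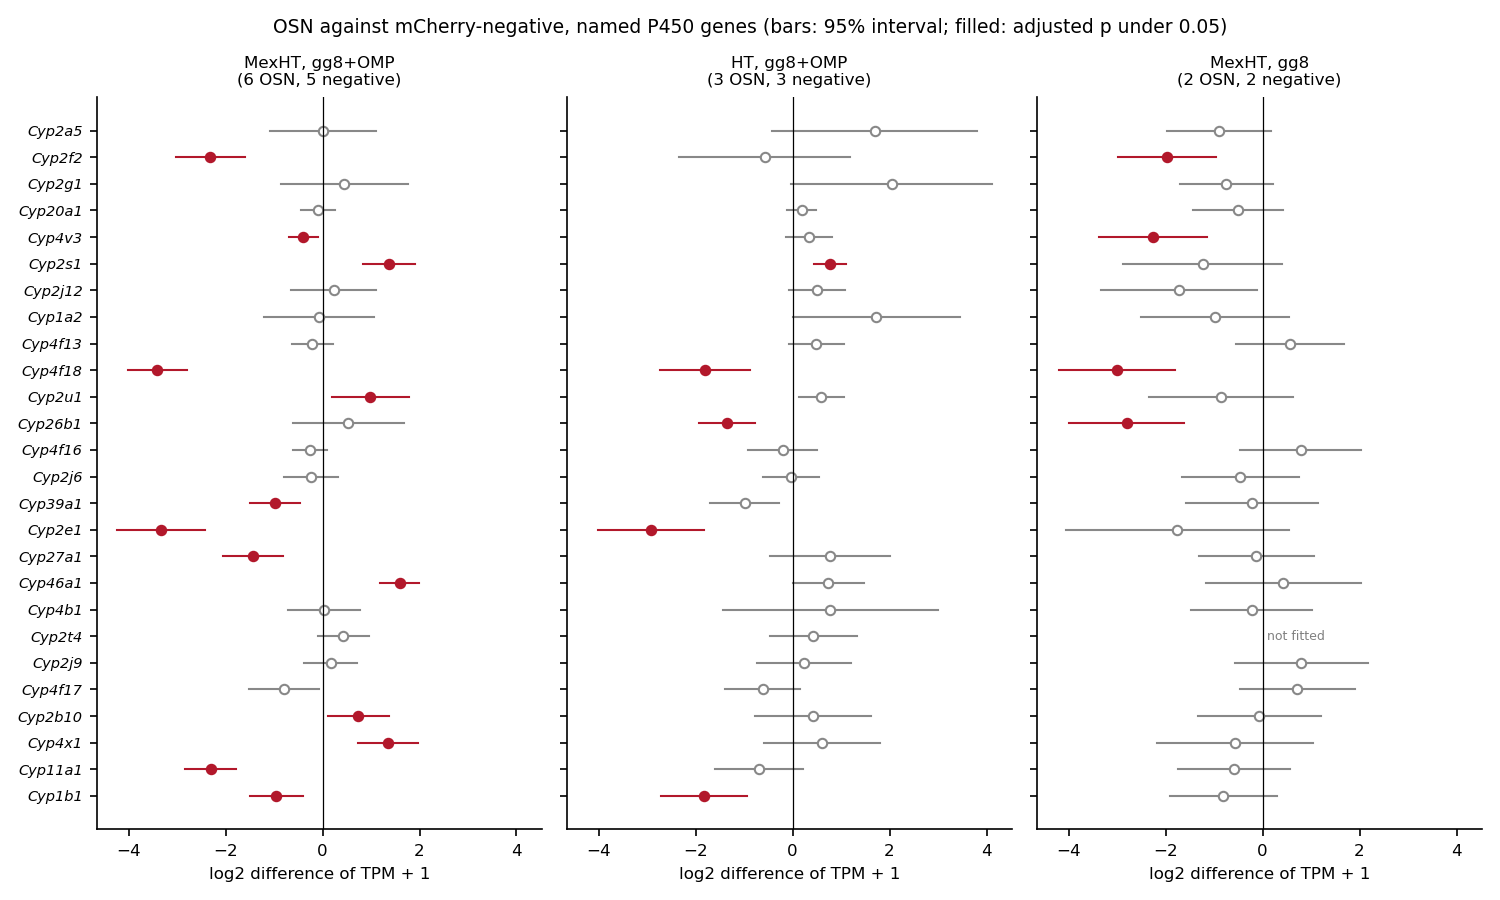
Log2 difference of TPM + 1, OSN minus mCherry-negative, of the named members in MexHT, HT and gg8 MexHT mice (points: estimates, bars: 95% intervals from limma, filled: adjusted p under 0.05). Cyp4f18 is filled and below 0 in all 3 panels, and Cyp2s1 is filled and above 0 in the MexHT and HT panels only, at -1.23 and not passing in the gg8 panel.

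Cyp4f18, which in mouse inactivates leukotriene B in neutrophils, was lower in OSN in all 3 comparisons. It ranged from 0.424 to 3.89 TPM in MexHT OSN, with a median of 2.06 TPM, against 24.8, 32.8, 28.8, 25.8 and 40.5 TPM in MexHT mCherry-negative libraries. HT mice had 5.12, 3.68 and 6.94 TPM in OSN and 28.1, 11.1 and 26.7 TPM in mCherry-negative cells, and in gg8 mice 0.332 and 0.602 TPM against 12.4 and 9.13 TPM. The fractions did not overlap in any of the 3. It fell by 3.41 (SE 0.28, adjusted p = 5.7e-07), 1.81 (SE 0.39, adjusted p = 0.0331) and 2.997 (SE 0.50, adjusted p = 0.0279) on the log2 scale. Granulocyte markers moved with it: their summed level over 10 genes was 160 to 379 TPM in MexHT OSN and 12382 to 16647 TPM in MexHT mCherry-negative libraries, 207 to 462 against 6400 to 15227 TPM in HT mice, and 71.5 and 78.6 against 2867 and 3719 TPM in gg8 mice. All 10 were lower in MexHT OSN (27.6% of all genes were) and in HT OSN (9.11%), and 9 of 10 in gg8 MexHT OSN (7.2%). None of the 10 passed between MexHT and HT OSN or in the interaction of construct and fraction, where Cyp4f18 passed, as given further on. Their part in the result was not tested.

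Cyp2e1, the ethanol-inducible P450, was close to absent from OSN. It ranged from 0.231 to 1.27 TPM in MexHT OSN, with a median of 0.803 TPM, against 46.9, 8.32, 26.5, 6.42 and 15.5 TPM in MexHT mCherry-negative libraries. HT OSN held 0.324, 0.819 and 0.412 TPM and their partners 15.8, 4.66 and 14.2 TPM. In gg8 mice it was 1.46 and 0 TPM in OSN and 1.04 and 12.8 TPM in mCherry-negative cells. Only the gg8 fractions overlapped. It fell by 3.33 (SE 0.42, adjusted p = 2.1e-05) in MexHT and 2.91 (SE 0.46, adjusted p = 0.0111) in HT mice, while the gg8 value of -1.76 did not pass (adjusted p = 0.254).

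Cyp1b1, which oxidises oestradiol and is known from mesenchymal cells, was lower in OSN of all 10 mice with both fractions. It ranged from 0.789 to 2.12 TPM in MexHT OSN, with a median of 1.37 TPM, and was 6.71, 2.18, 3.12, 4.46 and 2.69 TPM in the mCherry-negative libraries. The HT values were 0.0549, 0.222 and 0.419 TPM against 4.05, 1.79 and 4.77 TPM, and in gg8 mice 0.881 and 0.400 against 1.81 and 1.89 TPM. No fraction overlapped its partner. The log2 differences were -0.96 (SE 0.25, adjusted p = 0.00505), -1.82 (SE 0.37, adjusted p = 0.027) and, not passing, -0.81 (adjusted p = 0.268). Connective tissue and vessel markers, 10 genes, summed to 136 to 252 TPM in MexHT OSN and 11600 to 23942 TPM in MexHT mCherry-negative libraries, and their part was not tested.

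Among the P450s that handle sterols and steroids, Cyp11a1, the side-chain cleavage enzyme that opens steroid synthesis, was 0 to 0.569 TPM in MexHT OSN, with a median of 0.189 TPM and 5 of the 6 libraries at or under 3 counts. It was 2.59, 6.91, 4.69, 5.15 and 7.40 TPM in MexHT mCherry-negative libraries, all above the OSN libraries. It fell by 2.31 (SE 0.25, adjusted p = 5.28e-06). In HT mice it was 0.634, 2.57 and 1.61 TPM against 2.45, 2.52 and 4.24 TPM, which overlapped and did not pass (-0.69, adjusted p = 0.238). Cyp27a1, the mitochondrial sterol hydroxylase of bile acid synthesis, was 6.83, 5.91, 5.92, 5.29 and 5.52 TPM in MexHT mCherry-negative libraries and at most 3.70 TPM in MexHT OSN. It fell by 1.44 (SE 0.28, adjusted p = 0.000734), and Cyp39a1, an oxysterol hydroxylase, fell by 0.98 (adjusted p = 0.00291). Neither passed in HT or gg8 MexHT mice.

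Cyp46a1, the cholesterol hydroxylase of neurons, went the other way. It ranged from 6.43 to 10.8 TPM in MexHT OSN, with a median of 9.13 TPM, against 2.03, 2.70, 2.87, 2.56 and 1.43 TPM in MexHT mCherry-negative libraries, with no overlap, and rose by 1.59 (SE 0.18, adjusted p = 1.06e-05). In HT mice it was 6.77, 4.30 and 9.12 TPM against 3.95, 3.82 and 2.79 TPM, again without overlap, but the log2 difference of 0.74 did not pass (adjusted p = 0.145). In gg8 mice it was 11.1 and 2.90 TPM against 3.78 and 4.45 TPM. OSN exceeded mCherry-negative cells in 9 of 10 mice.

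Cyp2s1, an extrahepatic P450 induced through the aryl hydrocarbon receptor, was higher in OSN of mice with both drivers. It ranged from 22 to 32.8 TPM in MexHT OSN, with a median of 25.4 TPM, against 10.9, 18.9, 8.66, 6.86 and 5.91 TPM in MexHT mCherry-negative libraries. In HT mice it was 43.1, 44.3 and 43.8 TPM against 25.7, 29.2 and 21.6 TPM. In gg8 mice it was 15.8 and 3.60 TPM in OSN and 18.9 and 20.5 TPM in mCherry-negative cells. None of these groups overlapped. It rose by 1.37 (SE 0.24, adjusted p = 0.000348) in MexHT and 0.77 (SE 0.14, adjusted p = 0.0181) in HT OSN, and the gg8 value was -1.23 (adjusted p = 0.259). The gg8 and double-driver libraries stand in separately scaled tables, so that difference was not tested.

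Cyp4x1, a P450 known from brain, ranged from 1.93 to 7.14 TPM in MexHT OSN, with a median of 3.46 TPM, against 0.753, 1.07, 1.47, 0.75 and 0.221 TPM in MexHT mCherry-negative libraries. It rose by 1.35 (SE 0.28, adjusted p = 0.00119) without overlap. In HT mice it was 6.09, 4.11 and 1.64 TPM against 2.85, 3.11 and 0.705 TPM, which overlapped. RefSeq places an antisense gene, Cyp4x1os, over it, and the strand setting of the counting is not given in the sources used here. Cyp2u1, a fatty acid hydroxylase, rose by 0.98 (adjusted p = 0.0326) and Cyp2b10, the target of the constitutive androstane receptor, by 0.74 (adjusted p = 0.0422) in MexHT OSN, but neither passed with median-of-ratios scaling or without some single libraries. With the mouse as a replicate block Cyp2u1 also passed in HT mice (0.60, adjusted p = 0.0399), and it was higher in OSN in 8 of 8 double-driver mice. In gg8 mice Cyp2u1 was lower in OSN in 2 of 2, at 9.20 and 2.81 TPM against 10.2 and 10.5 TPM.

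Cyp26b1, which degrades retinoic acid, and Cyp4v3, whose human counterpart is a fatty acid hydroxylase known from a retinal dystrophy, depended on the mice. Cyp26b1 was 2.61, 2.99 and 4.35 TPM in HT OSN against 10.7, 9.38 and 9.53 TPM in HT mCherry-negative libraries, and 1.57 and 1.27 TPM against 16.7 and 14.9 TPM in gg8 mice. It fell by 1.35 (SE 0.24, adjusted p = 0.0169) and 2.80 (SE 0.49, adjusted p = 0.0299), without overlap. In MexHT OSN, replicates 1 to 4 held 29.5, 17.3, 26.8 and 22.6 TPM, replicates 5 and 6 held 2.5 and 5.61 TPM, and the mCherry-negative libraries held 5.48 to 14.5 TPM, for a difference of 0.53 (adjusted p = 0.395). The first 4 thus lay above every mCherry-negative library of their construct and the other two near or under the lower end of them. Cyp4v3 was 16.5 and 8.26 TPM in gg8 MexHT OSN and 71.1 and 50.1 TPM in its mCherry-negative partners, and fell by 2.25 (SE 0.46, adjusted p = 0.0389). Mature OSN markers moved with the gg8 differences of Cyp4v3, Cyp26b1 and, not passing, Cyp2s1. In gg8 MexHT OSN 9 of 13 were lower (7.2% of all genes were) and none higher, with summed levels of 1044 and 415 TPM against 8415 and 14709 TPM. In HT mice, where Cyp26b1 also fell, none of the 13 passed. Their summed levels there were 9717 to 14949 TPM in OSN and 5768 to 11940 TPM in mCherry-negative cells. The part of these markers was not tested. Cyp4v3 fell by 0.40 (adjusted p = 0.0245) in MexHT OSN, from 24.2 to 37.2 TPM in the negative fraction to 19.4 to 27.9 TPM, and in HT mice it was 36.5, 41.1 and 51.8 TPM against 27, 40.9 and 34.4 TPM, which overlapped and did not pass (adjusted p = 0.265).

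Cyp20a1, an orphan P450 with no assigned substrate, did not pass in any comparison of the fractions. It ranged from 23.1 to 43.3 TPM in MexHT OSN, with a median of 39.7 TPM, and was 41.9, 36.8, 39.8, 38.2 and 33.2 TPM in MexHT mCherry-negative libraries. In HT mice it was 40.5, 46.2 and 48.9 TPM against 40.1, 35.7 and 42.8 TPM, and in gg8 mice 37.0 and 22.5 TPM against 43.3 and 40.1 TPM. The 95% interval of its log2 difference was -0.44 to 0.26 in MexHT and -0.11 to 0.49 in HT mice. In gg8 mice the fractions did not overlap, OSN was lower in both, and the difference was -0.51 (-1.44 to 0.42, adjusted p = 0.391). Among the remaining named members, Cyp2j12, Cyp4f13, Cyp4f16, Cyp2j6, Cyp2j9, Cyp4b1 and Cyp4f17 did not pass in any comparison of the fractions. With the mouse as a replicate block Cyp2j12 was higher in HT OSN (0.50, adjusted p = 0.0262). Cyp2t4 was 3.16 to 9.80 TPM in MexHT OSN and at most 1.12 TPM in the gg8 libraries, where its level was too low to be fitted.

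The calls in HT mice were sensitive to single libraries: without HT mCherry-negative replicate 1 none of the 5 passed, without HT OSN replicate 1 or 2 only Cyp2e1 did, without HT OSN replicate 3 or HT mCherry-negative replicate 3 there were 3. The HT call of Cyp4f18 was also lost with voom. Those of Cyp26b1 and Cyp2s1 were lost with all 4 double-driver groups in one fit. In gg8 MexHT mice no member passed without OSN replicate 2 or either mCherry-negative library, which leaves 1 library in an arm.

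Between the constructs, 25 members could be tested in MexHT OSN against HT OSN and 8 passed, beside 36.8% of all genes. Of these 1 was higher (19.9% of all genes) and 7 lower (16.8%) in MexHT OSN. Neuron maturity markers moved with this comparison: 11 of 13 mature OSN markers were lower and none higher in MexHT OSN (summed level of the list 2430 to 7054 TPM against 9717 to 14949 TPM), and of 15 immature OSN markers 9 were higher and 1 lower. Their part in the result was not tested. The median log2 difference was -0.73 over these members and 0.03 over all genes, and 7 members did not overlap, beside 38.4% of all genes. Cyp2j12, of a subfamily best known for fatty acid epoxidation, moved most clearly. It ranged from 5.87 to 13.7 TPM in MexHT OSN, with a median of 9.11 TPM, against 53.8, 41.7 and 33.1 TPM in HT OSN, and fell by 2.11 (SE 0.26, adjusted p = 0.00041). Its mCherry-negative libraries had the same order of the constructs, with 12.8, 21.4, 4.44, 5.73 and 2.94 TPM in MexHT and 36.5, 31.9 and 22 TPM in HT mice, without overlap, but that difference of -1.84 did not pass (adjusted p = 0.218). In gg8 mice it was 3.49 and 6.22 TPM in OSN and 9.82 and 31.8 TPM in mCherry-negative cells.

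Cyp4f13, of the fatty acid-hydroxylating Cyp4f group, ranged from 6.55 to 11.8 TPM in MexHT OSN, with a median of 9.73 TPM, against 31.2, 17.6 and 29.5 TPM in HT OSN, and fell by 1.37 (SE 0.24, adjusted p = 0.00214). Cyp4v3 fell by 0.81 (adjusted p = 0.00332), Cyp2s1 by 0.73 (adjusted p = 0.00464) and Cyp2u1 by 0.73 (adjusted p = 0.0193), each without overlap. Cyp4f18 fell by 1.06 (adjusted p = 0.0462) with overlap, while none of the 10 granulocyte markers passed. Cyp1b1, at 0.0549 to 0.419 TPM in HT OSN, was the single member that rose (0.95, SE 0.26, adjusted p = 0.0174). That call was lost without HT OSN replicate 1 (adjusted p = 0.0758) or 2 (0.0566), and without any of MexHT OSN replicates 1 to 4 Cyp1b1 averaged under 1 TPM and could not be fitted. The Cyp4f18 call was lost without any of 7 of the 9 libraries, and that of Cyp2u1 without HT OSN replicate 2. Cyp2a5, Cyp2g1 and Cyp2f2 overlapped between the constructs and did not pass, with values of -0.97, -0.96 and -0.98 and adjusted p-values of 0.173, 0.242 and 0.142.

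Cyp27a1 ranged from 0.573 to 3.70 TPM in MexHT OSN, with a median of 1.42 TPM, against 8.19, 5.42 and 24.6 TPM in HT OSN, without overlap. It fell by 2.17 (SE 0.48, adjusted p = 0.0065). Macrophage markers, 10 genes, moved with it: they summed to 315 to 606 TPM in MexHT OSN and to 1678, 1396 and 5719 TPM in HT OSN replicates 1 to 3, all 10 were lower in MexHT OSN (16.8% of all genes were), and the highest library was the same for both. Without HT OSN replicate 3 the difference in Cyp27a1 was -1.60 (adjusted p = 0.0245). The part of macrophage RNA in it was not tested.

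**Figure D5:**
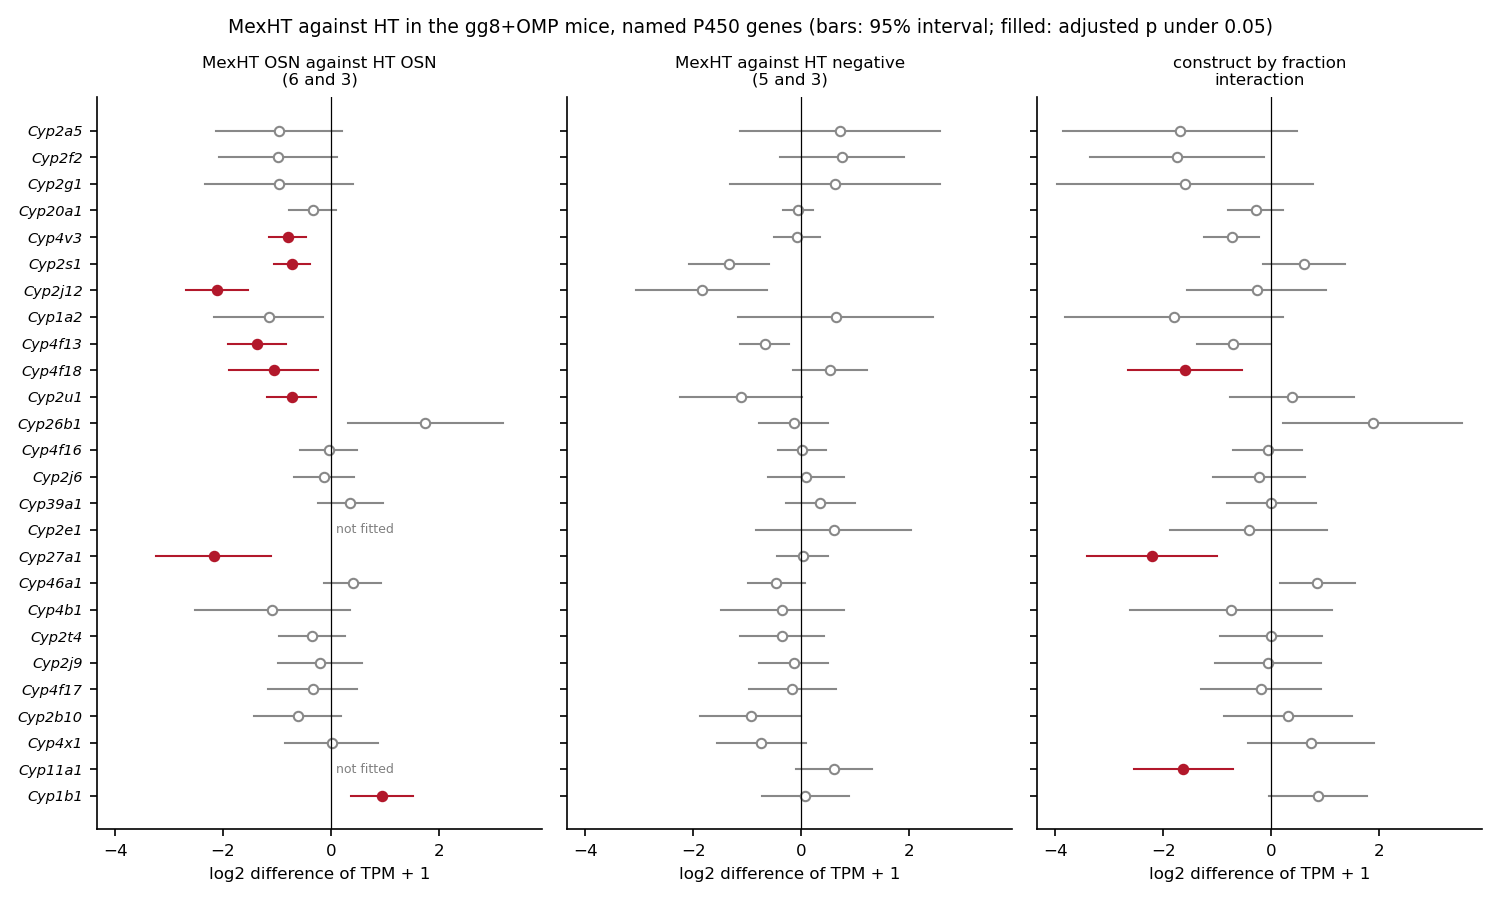
Log2 difference of TPM + 1 of the named members between MexHT and HT mice, for OSN, for mCherry-negative cells and for the construct by fraction interaction (points: estimates, bars: 95% intervals from limma, filled: adjusted p under 0.05). Cyp2j12 lies at -2.11 in OSN and at -1.84, not passing, in mCherry-negative cells, and no member is filled in the latter.

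The constructs also differed in Xist, the RNA of the inactive X chromosome, which was 58.4 to 140 TPM in the 6 MexHT OSN libraries and 0.126, 60.3 and 0.140 TPM in HT OSN replicates 1 to 3. With Xist as a covariate none of the 8 members passed, and 329 genes did in all where 5907 had before. The value of Cyp2j12 was then -1.99 (adjusted p = 0.0634), that of Cyp4f13 -0.81 (adjusted p = 0.248) and that of Cyp27a1 -1.25 (adjusted p = 0.379). HT OSN replicate 2, a single library, was the one with Xist in the range of MexHT OSN. It lay above all 6 MexHT OSN libraries for Cyp2j12 (41.7 TPM), Cyp2s1 (44.3), Cyp4v3 (41.1), Cyp2u1 (19.4), Cyp4f13 (17.6) and Cyp27a1 (5.42), and under all 6 for Cyp1b1 (0.222). These 7 are the members whose libraries did not overlap between the constructs. The place of replicate 2 follows from that choice and is no separate result on Xist.

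Among mCherry-negative libraries, MexHT and HT mice differed in none of the 31 members tested by limma, beside 0.0% of all genes. Unadjusted, 4 members were under 0.05, beside 20.6% of all genes, and with voom on recovered counts none passed. Cyp2s1 (-1.33), Cyp2j12 (-1.84) and Cyp4f13 (-0.67) did not overlap, 3 members beside 8.71% of all genes, and all had an adjusted p of 0.218. Xist was 55.3 to 163 TPM in MexHT mCherry-negative libraries and 0.0934, 76.5 and 0.135 TPM in HT mCherry-negative replicates 1 to 3. The interaction that follows was fitted without Xist.

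Whether the difference between the fractions itself differed between constructs was tested as an interaction over the 17 double-driver libraries. Of 29 members 3 passed, beside 12.4% of all genes, with none positive (7.05% of all genes) and 3 negative (5.37%). Cyp27a1 (-2.21, SE 0.57, adjusted p = 0.0187), Cyp11a1 (-1.62, SE 0.43, adjusted p = 0.0225) and Cyp4f18 (-1.60, SE 0.50, adjusted p = 0.0457) each had a lower OSN to mCherry-negative difference in MexHT than in HT mice, where Cyp27a1 was higher in OSN of all 3 mice. All 10 macrophage markers had a negative interaction that passed, beside 5.37% of all genes, and none of the 10 granulocyte markers passed. The part of either was not tested. The calls rest on few libraries: Cyp11a1 was lost without HT mCherry-negative replicate 1 (adjusted p = 0.0586) or HT OSN replicate 2 (0.0697), and Cyp4f18 without most single libraries. Without HT mCherry-negative replicate 2 none of these 3 passed, with values of -1.99, -1.53 and -1.19, and without HT OSN replicate 3 only Cyp11a1 did, with Cyp27a1 at -1.63 (adjusted p = 0.05) and Cyp4f18 at -1.41 (adjusted p = 0.113). For Cyp2a5 the interaction was -1.68 (95% interval -3.85 to 0.48, adjusted p = 0.301). With the mouse as a replicate block 6 members passed, the further ones being Cyp26b1 (2.10, adjusted p = 0.0256), Cyp2f2 (-1.88, adjusted p = 0.0304) and Cyp4v3 (-0.70, adjusted p = 0.0338). Of all 16785 genes tested 2603 passed with the block, where 2086 had without it.

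Enzymes that serve P450s went both ways. Of 19 electron donors and heme-pathway genes tested in MexHT OSN against mCherry-negative cells, 4 were higher and 5 lower, beside 35.8% and 27.6% of all genes, with a median log2 difference of -0.32 beside 0.16 over all genes. Por, which feeds the microsomal P450s, was 237 ± 32.9 TPM (SD, n = 6) against 201 ± 13.3 TPM (SD, n = 5) and did not pass (adjusted p = 0.0683). Hmox2, which degrades heme, rose by 1.21 (adjusted p = 2.92e-06), and the heme synthesis enzymes Alad, Fech and Alas1 fell by 1.65, 1.51 and 1.07. Fdxr, which feeds the mitochondrial P450s, rose by 0.60 (adjusted p = 0.00272). In HT mice, where 2.18% of all genes were higher and 9.11% lower, 1 of 19 passed, Ppox of heme synthesis, higher by 0.67. In gg8 mice, where 1.12% of all genes were higher and 7.2% lower, 2 were lower, Cyb5r1 (-1.70) and Fech (-1.53). Between MexHT and HT OSN 5 of the 19 were higher and 3 lower, beside 19.9% and 16.8% of all genes, with Pgrmc2 at 0.85 and Cyb5r1 at -2.37 the furthest.

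Among nuclear receptors and other regulators of P450 genes, 3 of 24 were higher and 11 lower in MexHT OSN than in mCherry-negative cells, with a median of -0.28. Beside them, 35.8% of all genes were higher and 27.6% lower. Vdr, the vitamin D receptor, fell by 3.67 (adjusted p = 1.98e-07), and by 2.87 and 3.07 in HT and gg8 MexHT mice. Cebpb fell by 2.27 and Foxa1 by 1.93 in MexHT mice, and by 1.01 and 1.69 in HT mice. Nr1i3, the constitutive androstane receptor, rose by 0.81 (adjusted p = 0.00488) in MexHT OSN. In HT mice 3 of 24 were lower (9.11% of all genes were) and in gg8 mice 3 of 22 (7.2%), and none was higher. In MexHT OSN against HT OSN 8 of 23 were lower (16.8% of all genes were) and none higher (19.9%). Among the 8 were Nfe2l2, the regulator of antioxidant genes (-1.66), and Rxra, the partner of many nuclear receptors (-1.66).

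Of 30 conjugation enzymes, which act on the products of P450s, 4 were higher and 15 lower in MexHT OSN, with a median of -0.70. In HT mice 3 of 30 and in gg8 mice 1 of 29 were lower, and the shares of all genes called in each comparison are those given for the electron donors. Sult1e1, the oestrogen sulfotransferase, fell by 3.59 and 2.78 in MexHT and HT mice, and Sult1d1 by 2.56 in gg8 mice, while Gstz1 rose by 1.08 in MexHT OSN. Of the other oxidising, reducing and hydrolysing enzymes 3 of 40 were higher and 29 lower in MexHT OSN, with a median of -1.38, and 12 of 42 were lower in HT and 9 of 36 in gg8 MexHT OSN. Aldh1a2, which makes the retinoic acid that Cyp26b1 degrades, fell by 3.82, 3.47 and 3.04, and the carboxylesterase Ces1a by 4.49 and 3.89 in MexHT and HT mice. Ptgis, the prostacyclin synthase, a P450 whose symbol lies outside the pattern, fell by 4.98, 4.26 and 3.09. Granulocyte and connective tissue markers fell alongside, as given above.

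The members under 1 TPM in every group were not evenly silent. HT OSN replicate 2 had more than 3 counts for 32 of these 55 members and gg8 MexHT OSN replicate 1 for 36, where their summed level was 39.2 and 38.9 TPM. HT OSN replicates 1 and 3 had 11 each and MexHT OSN replicate 5 had 10, and each of the other libraries had 0 to 5. HT OSN replicate 2 also had the most genes of any library at 1 TPM, 18006, against 13917 to 16789 in the others. At a limit of a mean of 0.5 TPM, 52 members were detected in HT OSN and 48 in gg8 MexHT OSN, against 32 to 35 in the other groups. In gg8 MexHT OSN this came from replicate 1, as replicate 2 summed to 2.89 TPM. In HT OSN replicate 2 was the highest, and replicates 1 and 3 summed to 12.8 and 17.9 TPM, where MexHT OSN replicate 5 had 14.5 TPM and every remaining library 1.97 to 11.3 TPM.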

How the data were processed

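RNA was measured in 21 libraries of sorted mouse main olfactory epithelium cells. Per the labels' protocols, cells were freed with papain, RNA was extracted with TRIzol and libraries were made from 10 ng with a stranded total RNA kit. The submitters' processing notes name FastQC, cutadapt, STAR, bedtools and the build mm10. The authors deposited TPM in 2 tables, for the 17 gg8tTA and OMPtTA libraries and for the 4 gg8tTA libraries. The program that gave TPM, its annotation and its use of strand are not given in the sources used here. Each table has its own scaling, and every test stays within one table. Symbols turned into dates by a spreadsheet (27 in each) were left out.

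TPM gives no depth by itself. Each gene's values moved in whole steps, which gave whole counts, within 0.01 counts, for 23613 of 23614 genes of the larger table and, within 0.05, for 99.85% of genes of the smaller. These served for depth, for a floor of 3 counts (counting error only) and for voom (TMM scaling) as an alternative. The test was limma 3.58.1 (trend option, R 4.3.3) on log2(TPM + 1), which understates the change of low genes, over every gene averaging 1 TPM or more across the libraries of that comparison, with Benjamini-Hochberg adjustment at 0.05, two-sided. The fit was tested on simulated data. Replicates within a group are separate mice by number, so p-values between constructs within a fraction measure the spread between these mice. In fraction comparisons and the interaction the arms share mice, and the main fit treats their libraries as independent. Those p-values do not separate the spread between mice from that within them.

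Members averaging 5 TPM or more in a group were named, and those of 1 TPM or more where they passed in a comparison without overlap. Library values are given for the 8 highest and the 3 largest changes in each direction. In other lists up to 4 passing genes per direction were eligible, some of which are given. The members and lists were chosen with earlier results of these data known. OSN and mCherry-negative libraries of a number share a mouse, per the labels. Deviations from the group means correlated at -0.11 to 0.42 over the 5 MexHT pairs and 0.17 to 0.47 over the 3 HT pairs. In gg8 mice Xist was 0.441 and 159 TPM in OSN and 0.144 and 21.4 TPM in mCherry-negative replicates 1 and 2. The partners of gg8 replicate 2 were thus unlike in Xist. The fit without the mouse was the main one, and its block an alternative. Positions and upstream bases are from RefSeq (GRCm38.p6). Identity between members used BLAST 2.17.0 on GENCODE transcripts in place of the planned protein comparison.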

Additional observations from a re-analysis of the deposited data

Results flagged for a closer look

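Among 54 checks of single libraries in the MexHT groups, 4 stood apart by the gap to their nearest neighbour, and chance alone gives about 1 in 20. Cyp2j9 was 7.82 TPM in MexHT OSN replicate 4, a gap of 0.775 of the group's range. Cyp2j9 was 6.20 TPM in MexHT mCherry-negative replicate 1, a gap of 0.827. The summed P450 level was 551 TPM in MexHT OSN replicate 6, a gap of 0.643, and 1363 TPM in MexHT mCherry-negative replicate 1, a gap of 0.818. In these libraries the summed sustentacular markers were also the highest of their groups, at 960 and 4083 TPM. Their part was not tested.

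The difference between fractions differed between MexHT and HT mice, by the interaction test in limma, for Cyp27a1 (-2.21, adjusted p = 0.0187), Cyp11a1 (-1.62, adjusted p = 0.0225) and Cyp4f18 (-1.60, adjusted p = 0.0457).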

How the results depend on the processing

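No value that passed changed direction under the alternatives run (pseudocount of 0.1 TPM, no filter on low values, median-of-ratios scaling, voom on recovered counts, replicate block, all 4 double-driver groups in one fit, Xist covariate, and each library left out). Of 2319 values under them 107, none past the threshold in the reported fit, took the opposite sign, among them that of Cyp2a5 in MexHT fractions. Among members called in MexHT OSN against MexHT mCherry-negative cells, the count was 11 to 14 without a library and 13 to 18 under other settings. Leaving out a library gave 0 to 6 calls in HT OSN against HT mCherry-negative cells, 0 to 5 in gg8 MexHT OSN against gg8 MexHT mCherry-negative cells, where the lone library is assumed to vary like the others, 6 to 10 in MexHT OSN against HT OSN, 0 between mCherry-negative groups and 1 to 4 in the construct by fraction interaction. With the replicate block, members called were 11 in place of 5 for HT OSN against HT mCherry-negative cells and 6 in place of 3 for the interaction, and 15, 4, 6 and 0 in the other comparisons. Calls over all genes rose from 1923 to 4967 in HT fractions and from 2086 to 2603 in the interaction. The block changed single calls elsewhere: Cyp26a1 was lost and Cyp2t4 gained in MexHT fractions. Between constructs the number marks no shared mouse. Deviations correlated at 0.11, 0.13 and -0.23 for the numbers of MexHT and HT OSN and at 0.34, 0.42 and 0.23 for those of the mCherry-negative groups. A pseudocount of 0.1 TPM left 2 calls in gg8 MexHT mice. For MexHT OSN against HT OSN, no filter gave 21 calls (1 higher, 20 lower), as more members were tested, and the Xist covariate 0. At 0.5 TPM, 52 members were detected in HT OSN and 48 in gg8 MexHT OSN. The causes were not tested. Without any of MexHT OSN replicates 1 to 4, Cyp1b1 fell under the filter between constructs and has no value. Depth limits members under 1 TPM, where 3 counts or fewer are common.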
